A study of Mus musculus with 6 samples.

Results

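The Toll-like receptor genes Tlr1 to Tlr9 and the gene of their shared adaptor, Myd88, were followed in RNA of mouse T cells after co-culture with ID8 ovarian cancer cells. They were taken by gene name, and all 10 were found among the 54532 genes of the deposited expression table. The T cells were isolated from spleens of C57BL/6 mice (6 to 8 weeks old) with a pan-T-cell kit. They were cultured with IL-2 and pre-activated with anti-CD3/28 beads for 72 h before the co-culture. In the cisplatin group (3 libraries) the ID8 cells, an established C57BL/6-derived tumour line, had been pretreated with 40 µM cisplatin, and in the control group (3 libraries) with PBS. The source labels give the cell type of all 6 libraries as T cells. ID8 is a cultured line, and the labels and methods do not say how the T cells were separated from it after co-culture or whether replicate libraries came from separate mice. The p-values therefore measure the spread between these libraries, which may be technical.

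Toll-like receptors bind microbial or damaged-cell molecules with a leucine-rich ectodomain and signal through a cytoplasmic TIR domain. TLR1, TLR2 and TLR6 (lipopeptides, as heterodimers with TLR2), TLR4 (lipopolysaccharide, with MD-2 and CD14) and TLR5 (flagellin) act at the cell surface, whereas TLR3 (double-stranded RNA), TLR7 and TLR8 (single-stranded RNA) and TLR9 (CpG DNA) act in endosomes. All of these except TLR3 can signal through MyD88, which recruits IRAK kinases and TRAF6 and ends in NF-κB and IRF activation. In the spleen, B cells and myeloid cells carry most Toll-like receptors, while T cells use MyD88 for IL-18, IL-1 and IL-33 receptors as well.

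Expression was deposited as FPKM, which is fragments per kilobase of gene length, divided by a value set for each library. Levels can thus be compared between genes of different length. FPKM times gene length was a whole multiple of one step in every library, and the rebuilt reads on genes numbered 30606569 to 32169496 per library. By their marker genes, the libraries held RNA of other cells beside T cells. The 20 T-cell markers summed to 2295 to 2368 FPKM in the cisplatin and 1471 to 1571 FPKM in the control libraries. The 15 ID8 tumour-cell markers (keratins, Msln, Sparc and others) summed to 202 to 209 and to 1441 to 1514 FPKM, the 12 B-cell markers to 3635 to 3710 and to 1702 to 1790 FPKM, and the 13 monocyte and macrophage markers to 125.5 to 144.6 and to 59.7 to 63.7 FPKM. Most of the B-cell sums came from the immunoglobulin gene Ighm alone, which averaged 3220 FPKM with cisplatin and 1433 FPKM in control. The neutrophil markers summed to at most 4.31 FPKM in any library. Among the 10 dendritic-cell markers Cd209a was at 0 in all libraries, and that list summed to 191.4 to 198.2 and to 265.9 to 294.7 FPKM. Most of this sum was Bst2, at 149.8 FPKM on average with cisplatin and 240.2 FPKM in control. Of the 6 tested dendritic-cell markers, 4 were higher and 2 lower at an adjusted p-value under 0.05 (limma). In such bulk RNA, fewer cells of a type and less RNA per cell cannot be told apart.

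The 250 bases before a RefSeq transcription start are shown for Tlr1 and Tlr9, which rose together, and for Myd88, because these windows held matches to binding motifs of factors that act in lymphoid, myeloid or interferon-exposed cells. Sequences are from RefSeq (GRCm38.p6), read 5′ to 3′ on the strand of the gene, and capitals mark the motif match. The windows are chr5:64933559-64933808 (minus strand) for Tlr1, chr9:106222348-106222597 (plus strand) for Tlr9 and chr9:119340019-119340268 (minus strand) for Myd88.
Tlr1: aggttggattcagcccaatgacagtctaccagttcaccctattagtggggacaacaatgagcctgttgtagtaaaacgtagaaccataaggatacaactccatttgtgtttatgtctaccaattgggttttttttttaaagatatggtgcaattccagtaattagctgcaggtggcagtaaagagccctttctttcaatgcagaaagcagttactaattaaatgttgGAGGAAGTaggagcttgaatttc
Tlr9: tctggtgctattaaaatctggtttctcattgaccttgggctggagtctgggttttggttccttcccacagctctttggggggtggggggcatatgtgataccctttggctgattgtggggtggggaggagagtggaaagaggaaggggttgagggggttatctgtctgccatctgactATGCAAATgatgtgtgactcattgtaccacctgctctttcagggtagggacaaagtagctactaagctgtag
Myd88: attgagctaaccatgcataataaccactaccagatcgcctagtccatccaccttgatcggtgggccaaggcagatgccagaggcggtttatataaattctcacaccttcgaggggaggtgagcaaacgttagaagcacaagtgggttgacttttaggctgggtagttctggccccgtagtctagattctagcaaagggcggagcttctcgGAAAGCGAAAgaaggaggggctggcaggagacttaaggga

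The motifs searched on both strands were GAGGAAGT (PU.1-like), ATGCAAAT (octamer-like, the element bound by POU factors in B cells), GAAANNGAAA (ISRE-like, the interferon-response element) and GGGANTTTCC (NF-κB-like). They were chosen with the expression values known and overlap one another in none of the windows printed. The Tlr1 window held the PU.1-like motif 23 to 16 bases before the start, the Tlr9 window the octamer-like motif 72 to 65 bases before it, and the Myd88 window the ISRE-like motif 40 to 31 bases before it. Of all 32851 RefSeq windows of this length, 2.44% held the PU.1-like, 1.60% the octamer-like, 2.98% the ISRE-like and 0.356% the NF-κB-like letters. Of the members, 8 matched an entry of the promoter table, with 10 windows among them, and Tlr4 and Tlr7 are named only. The Tlr3 window held an NF-κB-like match and one Tlr6 window ISRE-like matches. The window of the other Tlr1 start, that of the other Tlr6 start and those of Tlr2, Tlr5 and Tlr8 held none of the motifs. These are matches of letters and do not show that a factor was bound.

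In control libraries Tlr4 and Myd88 had the highest levels of the 10 genes, at 13.8 ± 0.364 and 13.6 ± 0.0957 FPKM (SD, n = 3 each), and their libraries overlapped. Tlr7 (6.70 ± 0.460) and Tlr1 (6.66 ± 0.314 FPKM, SD, n = 3 each) followed and also overlapped each other. Next came Tlr9 (4.46 ± 0.252 FPKM) and Tlr2 (3.70 ± 0.188 FPKM), which were separate. Tlr3 (1.92 ± 0.161 FPKM) and Tlr6 (1.82 ± 0.132 FPKM) overlapped, and Tlr5 (0.248 ± 0.125 FPKM) and Tlr8 (0.227 ± 0.0746 FPKM) overlapped at the bottom of the order (SD, n = 3 each). With cisplatin-pretreated ID8 cells the order was Myd88 (15.5 ± 0.855 FPKM), Tlr7 (13.7 ± 0.284 FPKM), Tlr1 (12.5 ± 0.714 FPKM), Tlr9 (8.79 ± 0.399 FPKM), Tlr2 (3.55 ± 0.669 FPKM), Tlr4 (2.52 ± 0.115 FPKM), Tlr6 (2.30 ± 0.451 FPKM), Tlr3 (0.656 ± 0.179 FPKM), Tlr8 (0.422 ± 0.0565 FPKM) and Tlr5 (0.0366 ± 0.0633 FPKM) (SD, n = 3 each). Tlr4 thus moved from the first to the sixth place. The libraries of Tlr4 and Tlr6 overlapped there, while those of Tlr2 lay above both, the lowest of Tlr2 and the highest of Tlr6 being equal at 2.79 FPKM after rounding.

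**Figure D1:**
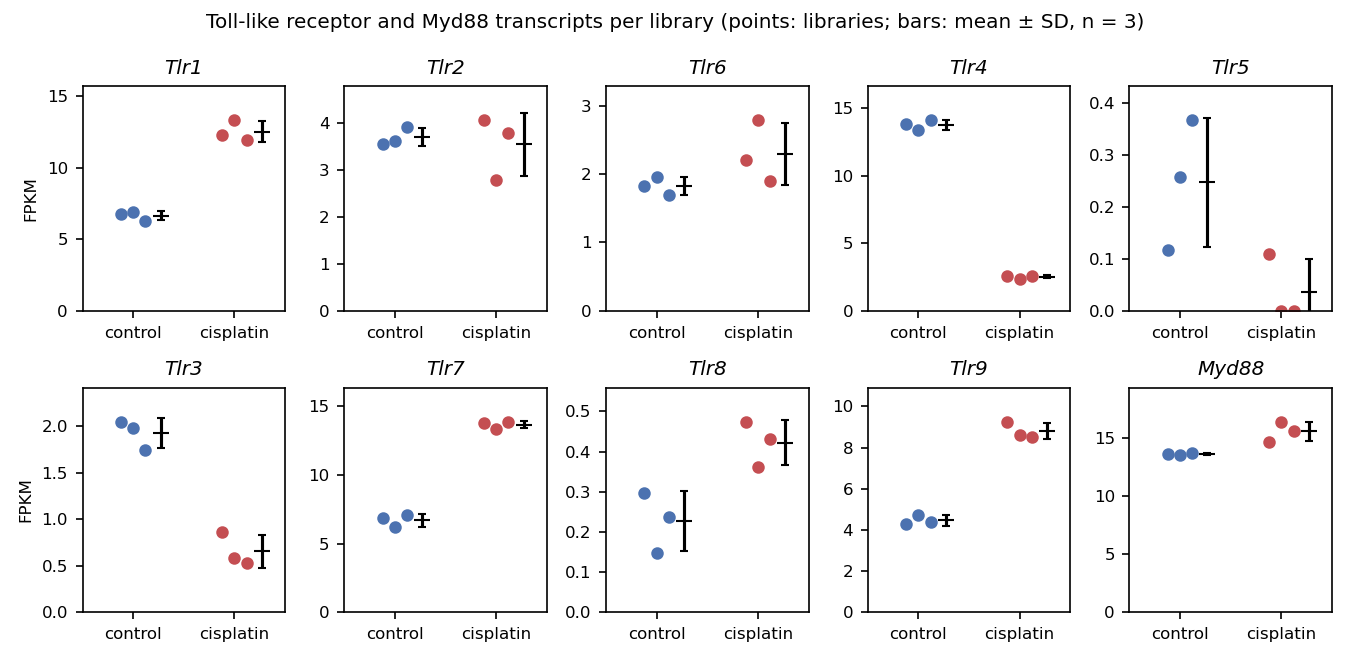
FPKM of each gene (vertical axes from 0, different for each gene) in the 3 control (blue) and 3 cisplatin (red) libraries, with the mean and SD beside them (bars are cut at 0). The Tlr1, Tlr7 and Tlr9 libraries of the cisplatin group lie above and the Tlr3 and Tlr4 libraries below all control libraries, whereas those of Tlr2 and Tlr6 overlap.

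With cisplatin-pretreated ID8 cells, transcripts of Tlr4 and Tlr3 were lower, those of Tlr1, Tlr7 and Tlr9 were higher by about 2-fold, and Myd88 differed little, in a direction that turned with the scaling. The comparison was made on log2(FPKM + 0.1) with limma, in one fit over the 15874 genes that averaged 0.5 FPKM or more, with Benjamini-Hochberg adjustment over all of them. Of the 10 members, 8 passed this minimum, and Tlr5 and Tlr8 did not. At an adjusted p-value under 0.05, 4 members (Tlr1, Tlr7, Tlr9 and Myd88) were higher with cisplatin-pretreated ID8 cells and 2 (Tlr3 and Tlr4) were lower, beside 27.5% of all tested genes higher and 29.0% lower. Called differentially expressed, with a change of at least 2-fold in addition, were Tlr7 in the upward direction (4.11% of all tested genes) and Tlr3 and Tlr4 in the downward direction (12.8% of all tested genes). The median log2 fold change (log2FC) was 0.25 over the 8 tested members and 0.03 over all tested genes. With 8 tested members and so many changed genes in the background, these counts are not read as a result about the members, and the values are given gene by gene. The T-cell markers had a median log2FC of 0.55. Centring each library on them, which assumes that these genes did not change, moved the median of all tested genes to -0.53 and quantile normalization moved it to 0.16, and values after the centring are given where they alter a direction or a call. Over all genes, 653 were called higher and 2034 lower as deposited, 146 and 3622 after the centring, and 979 and 1790 with quantile normalization. Of the members, 0 were called higher and 2 lower after the centring, and 3 and 2 with quantile normalization.

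Among the tested surface receptors, Tlr4 had the largest change. Tlr4 (ENSMUSG00000039005, chromosome 4 from 66827584 to 66930284 of GRCm38, the build of all coordinates given, plus strand), the lipopolysaccharide receptor, had 2.57, 2.39 and 2.60 FPKM in the cisplatin libraries and 13.9, 13.4 and 14.1 FPKM in the control libraries. All 3 cisplatin libraries were far below all control libraries, and rebuilt reads on the gene went from 2232 to 2407 per library in control to 440 to 469. The log2FC was -2.41 (standard error, SE, 0.06, adjusted p = 3.0e-07 by limma), 5.30-fold lower, and -2.96 after the centring. Beside it, the 12 tested ID8 tumour-cell markers had a median log2FC of -2.28 (range -3.61 to -0.08), with 10 called lower, whereas the 10 tested monocyte and macrophage markers, from cells that also carry TLR4, had a median of 1.44 and 8 were called higher. The part of either cell type in the Tlr4 values was not tested.

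Of the partners of TLR4, Cd14 and Lbp were lower, and Ly96 did not pass the test. Cd14, which hands lipopolysaccharide to TLR4, had 5.35 ± 0.463 FPKM with cisplatin and 7.43 ± 0.592 FPKM in control (SD, n = 3 each), a log2FC of -0.47 (adjusted p = 0.0038), which was -1.02 and past 2-fold after the centring. Ly96, which encodes MD-2, had 2.82 ± 0.596 and 3.79 ± 0.717 FPKM (SD, n = 3 each) and its libraries overlapped (log2FC -0.42, adjusted p = 0.12, and adjusted p = 0.0036 after the centring). Lbp, the lipopolysaccharide-binding protein, fell from 2.77 ± 0.118 to 0.550 ± 0.0897 FPKM (SD, n = 3 each), with log2FC -2.15 (adjusted p = 3.8e-05). Cd180, a TLR4 homologue of B cells and myeloid cells without a TIR domain, rose from 3.36 ± 0.322 to 10.9 ± 0.564 FPKM (SD, n = 3 each), with log2FC 1.67 (adjusted p = 7.0e-06). Its partner Ly86 (MD-1) had a log2FC of 0.42 (adjusted p = 0.0043), which was -0.14 after the centring. Cd36, a scavenger receptor that presents lipids to TLR2 with TLR6, rose from 1.48 ± 0.295 to 5.33 ± 0.260 FPKM (SD, n = 3 each, log2FC 1.80, adjusted p = 7.8e-05).

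The lipopeptide receptors did not move as a unit. Tlr1 (ENSMUSG00000044827, chromosome 5 from 64924679 to 64933563) had 12.3, 13.3 and 11.9 FPKM with cisplatin and 6.77, 6.90 and 6.30 FPKM in control. The groups did not overlap, and the log2FC of 0.90 (SE 0.06, adjusted p = 2.8e-05) was just short of 2-fold. After the centring it was 0.34 (adjusted p = 0.0027). Tlr2 (ENSMUSG00000027995, chromosome 3 from 83836272 to 83841767), with which TLR1 and TLR6 pair, had 4.06, 2.79 and 3.80 FPKM with cisplatin and 3.56, 3.63 and 3.91 FPKM in control. One cisplatin library was below and another above all control libraries, and the log2FC was -0.07 (95% interval -0.42 to 0.27, adjusted p = 0.69). After the centring the Tlr2 value was -0.63 (adjusted p = 0.0073). Tlr6 (ENSMUSG00000051498, chromosome 5 from 64952031 to 64960097) had 2.21, 2.79 and 1.90 FPKM with cisplatin and 1.82, 1.95 and 1.69 FPKM in control, so the groups overlapped. Its log2FC was 0.30 (95% interval -0.07 to 0.68, adjusted p = 0.14) and -0.25 after the centring. Tlr1 and Tlr6 are neighbours on the minus strand of chromosome 5, and 13.6% of the 50-base words of Tlr1 transcripts also occur in Tlr6 transcripts (12.3% in the other direction). How reads matching both genes were counted is not given in the sources used here, so the values of this pair are uncertain to that extent.

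Tlr5 (ENSMUSG00000079164, chromosome 1 from 182954788 to 182976044), the flagellin receptor, was near the detection limit. Its rebuilt reads were 17, 0 and 0 in the cisplatin libraries and 17, 37 and 54 in the control libraries. One library of each group thus held the same number of reads, and the other cisplatin libraries held none. The summed reads, 17 (exact Poisson 95% interval 9.90 to 27.2) against 108 (88.6 to 130.4), carry counting error only and hide this spread between libraries. By limma's voom on the rebuilt reads, Tlr5 had an adjusted p of 7.3e-04 and a log2FC of -4.36 with a standard error of 1.01, which depends on the small amount added to reads of 0. In the fit on FPKM with no minimum its adjusted p was 0.071.

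Among the endosomal receptors, Tlr7 and Tlr9 rose and Tlr3 fell. Tlr7 (ENSMUSG00000044583, chromosome X from 167304929 to 167330558), which detects single-stranded RNA in B cells and plasmacytoid dendritic cells, had 13.8, 13.3 and 13.9 FPKM with cisplatin and 6.84, 6.19 and 7.07 FPKM in control. Every cisplatin library was above every control library, with a log2FC of 1.02 (SE 0.06, adjusted p = 1.4e-05), or 2.03-fold, and 0.46 after the centring (adjusted p = 5.8e-04). Tlr9 (ENSMUSG00000045322, chromosome 9 from 106222598 to 106226883), the receptor for unmethylated CpG DNA, had 9.25, 8.61 and 8.52 FPKM with cisplatin and 4.27, 4.75 and 4.37 FPKM in control. The groups were separate, and its log2FC was 0.96 (SE 0.06, adjusted p = 2.6e-05), or 1.95-fold, and 0.41 after the centring (adjusted p = 0.0015). The ratio of Tlr7 to Tlr9 FPKM was 1.56 ± 0.0688 with cisplatin and 1.51 ± 0.178 in control (SD, n = 3 each, two-sided exact permutation test p = 0.80).

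Markers of B cells, which carry these receptors, were also higher as deposited, though not in the median after the centring. Of the 12 tested B-cell markers, 11 were higher at an adjusted p-value under 0.05 (median log2FC 0.48, and -0.07 after centring on the T-cell markers). Among them were Ighm with 1.17, Ms4a1 with 0.96, Cd79b with 0.75 and Cd22 with 0.25. After that centring these genes were at 0.61, 0.41, 0.20 and -0.30. Centred on the B-cell markers in place of the T-cell markers, a setting chosen after the data were seen, the log2FCs were 0.36 for Tlr1 (adjusted p = 0.0053), 0.48 for Tlr7 and 0.42 for Tlr9. The plasmacytoid dendritic cell marker Siglech was at or under 0.0241 FPKM on average in both groups. In the same dendritic-cell list, Ccr9 averaged 4.36 FPKM with cisplatin and 1.58 FPKM in control, and Bst2 149.8 and 240.2 FPKM. Whether the rise of Tlr1, Tlr7 and Tlr9 followed a change in the makeup of the cells was not tested.

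Tlr3 (ENSMUSG00000031639, chromosome 8 from 45395665 to 45411080), the double-stranded RNA receptor that signals through TRIF, had 0.860, 0.580 and 0.527 FPKM with cisplatin and 2.05, 1.98 and 1.74 FPKM in control. It was lower in all 3 cisplatin libraries, with 89 to 145 rebuilt reads against 278 to 320, and its log2FC was -1.44 (SE 0.21, adjusted p = 0.0011), or 2.72-fold. An antisense gene that overlaps Tlr3, Gm45542, was listed at 0 in all libraries. Tlr8 (ENSMUSG00000040522, chromosome X from 167242696 to 167264329), which lies beside Tlr7, had 55, 43 and 50 rebuilt reads with cisplatin and 32, 16 and 26 in control, so all cisplatin libraries held more. Its summed reads were 148 (exact Poisson 95% interval 125.1 to 173.9) and 74 (58.1 to 92.9). Voom on the rebuilt reads gave a log2FC of 1.0 (SE 0.39, adjusted p = 0.031), and the FPKM fit with no minimum 0.69 (adjusted p = 0.21), so whether Tlr8 passed the test depended on the method.

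**Figure D2:**
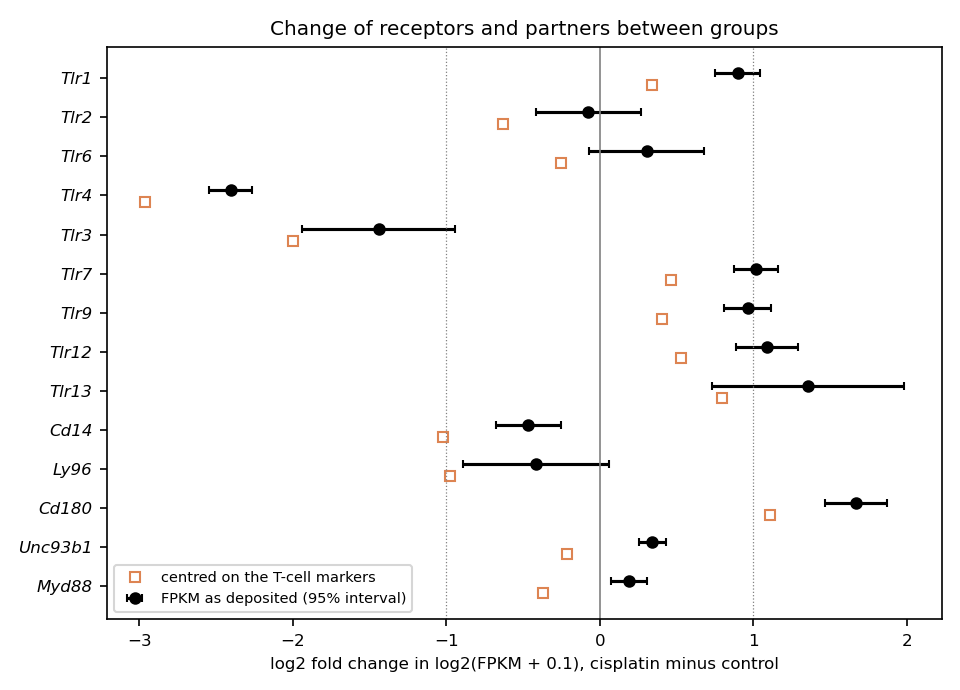
Log2FC (horizontal axis, cisplatin minus control) of receptors, co-receptors and Myd88 on FPKM as deposited with 95% intervals from limma (filled) and after centring on the T-cell markers (open squares); dotted lines mark 2-fold. Tlr4 is lowest at -2.41, Tlr1, Tlr7 and Tlr9 are above 0 under both scalings, and Tlr6, Unc93b1 and Myd88 lie above 0 as deposited and below 0 after the centring.

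Shares within the receptor family are not altered by a factor that scales a whole library. They are parts of one sum, however, so a smaller share of Tlr4 by itself makes the other shares larger. Tlr1 to Tlr9 summed to 45.6, 44.1 and 43.6 FPKM in the cisplatin libraries and to 39.6, 39.2 and 39.8 FPKM in the control libraries. Tlr4 made up 34.9% ± 0.651 of this sum in control and 5.68% ± 0.286 with cisplatin (SD, n = 3 each). The share of Tlr7 was 30.7% ± 0.930 against 16.9% ± 1.04, that of Tlr1 28.2% ± 1.72 against 16.8% ± 0.912 and that of Tlr9 19.8% ± 0.439 against 11.3% ± 0.716 (SD, n = 3 each). The endosomal receptors together (Tlr3, Tlr7, Tlr8 and Tlr9) gave 51.8% to 53.6% of the sum in the cisplatin and 33.3% to 34.0% in the control libraries. Part of this difference follows from the smaller Tlr4 share. Within this class the share of Tlr3 fell, from 4.86% in control to 1.47% with cisplatin. Tlr7 FPKM was 5.42 ± 0.138 times that of Tlr4 with cisplatin and 0.485 ± 0.0209 times in control (SD, n = 3 each). For each of these shares and ratios the groups were separate (p = 0.10 in a two-sided exact permutation test, which with 3 against 3 libraries cannot give less), while the share of Tlr6 overlapped between groups (p = 0.60 by the same exact test).

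**Figure D3:**
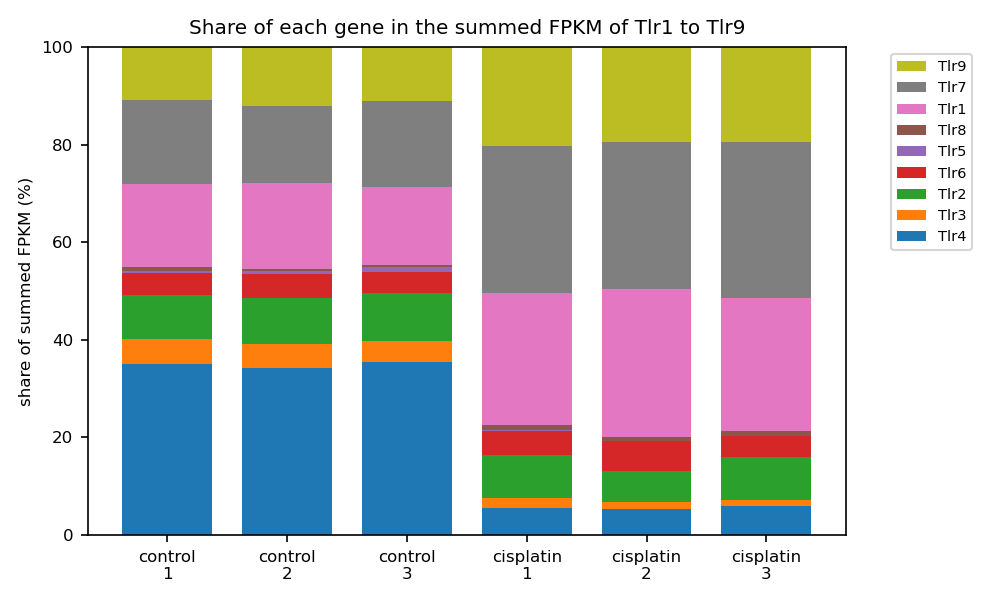
Share of each gene (vertical axis, percent) in the summed FPKM of Tlr1 to Tlr9 in each library. Tlr4 (bottom, blue) takes 34.2% to 35.5% in the control and 5.41% to 5.98% in the cisplatin libraries, and Tlr1, Tlr7 and Tlr9 take larger shares with cisplatin.

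Myd88 (ENSMUSG00000032508, chromosome 9 from 119335934 to 119341411), the adaptor used by all these receptors except TLR3, had 14.6, 16.4 and 15.6 FPKM with cisplatin and 13.6, 13.5 and 13.7 FPKM in control. The groups did not overlap, although the difference was small, with a log2FC of 0.19 (SE 0.05, adjusted p = 0.015), or 1.14-fold. After centring on the T-cell markers Myd88 was lower, with a log2FC of -0.37 (adjusted p = 3.3e-04). Relative to the median of all tested genes it was 0.16 higher, a value that the centring cannot change because it lowers every gene alike. Myd88 overlaps the span of Acaa1a on the other strand (log2FC -0.41) and that of Slc22a14, which was at or under 0.0686 FPKM on average. Whether strand was used in counting is not given in the sources used here.

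By the smallest distance between centred log2(FPKM + 0.1) profiles over the 6 libraries, among 7665 protein-coding genes that averaged 5 FPKM or more, the genes most like Myd88 were Ppil2 (distance 0.041), Foxk2 (0.054) and Atp5f1 (0.057). Tlr7 had the highest mean among the receptors, and the genes most like it were Cxcr3 (distance 0.090), Ctsc (0.092) and Heatr1 (0.095). All 6 libraries carry the contrast between groups, and this likeness is a description with no test.

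The remaining mouse receptors and the chaperones of the family were examined from lists of pathway genes. Tlr12, a profilin receptor, rose from 5.02 ± 0.537 to 10.7 ± 0.394 FPKM (SD, n = 3 each, log2FC 1.09, adjusted p = 5.2e-05), close to the changes of Tlr7 and Tlr9. Tlr13, a sensor of bacterial ribosomal RNA, rose from 0.557 ± 0.213 to 1.53 ± 0.136 FPKM (SD, n = 3 each, log2FC 1.35, adjusted p = 0.0042), and Tlr11 did not pass the minimum. After the centring Tlr12 was at 0.53 and Tlr13 at 0.80. Unc93b1, which carries the endosomal receptors out of the endoplasmic reticulum, went from 49.3 ± 1.11 to 62.4 ± 2.24 FPKM (SD, n = 3 each, log2FC 0.34, adjusted p = 2.8e-04), and was -0.22 after the centring. Of the 6 chaperone and trafficking genes, 2 were higher, 1 was lower and 3 did not pass an adjusted p-value of 0.05, with a median log2FC of 0.01. After the centring all 6 were lower at that threshold, with a median of -0.54.

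In the pathway lists, changes were mostly under 2-fold and went both ways. These lists hold the genes downstream of the receptors and also the remaining receptors, the co-receptors, the chaperones and other receptors that use MyD88. Of their 74 genes, 67 were tested. Of these, 33 were higher, 16 lower and 18 did not pass an adjusted p-value of 0.05, with a median log2FC of 0.21. Over all tested genes, 27.5% were higher and 29.0% lower at the same threshold, and counts in the pathway lists are not read as a result about the pathway. After the centring the balance of directions in these lists turned, with 9 higher and 40 lower and a median of -0.35. Among the other adaptors, Tirap, which bridges TLR2 and TLR4 to MyD88, fell from 3.74 ± 0.326 to 2.25 ± 0.396 FPKM (SD, n = 3 each, log2FC -0.72, adjusted p = 0.0042, and -1.28 after the centring). Ticam1, which encodes the TLR3 adaptor TRIF, had a log2FC of -0.21 (adjusted p = 0.15, and -0.77 with adjusted p = 7.9e-04 after the centring). Of the 6 tested IRAK kinases and Pellino ligases, 4 were lower and 1 was higher. Irak2 went from 17.2 ± 0.374 to 12.7 ± 0.191 FPKM (SD, n = 3 each, log2FC -0.44, adjusted p = 7.4e-05) and Irak1 had a log2FC of -0.28 (adjusted p = 0.0018). The ubiquitin ligase gene Peli1 was higher (log2FC 0.41, and -0.14 after the centring) and Peli3 was called lower (log2FC -1.62, adjusted p = 0.0016).

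In the TRAF6-TAK1-IKK arm, 4 of 8 genes were higher and 2 lower. Ikbkb (log2FC 0.50) and Chuk (0.42), the catalytic subunits of IκB kinase, were higher as deposited and not after the centring (-0.05 and -0.14), and Ikbkg, its regulatory subunit, was lower, from 21.7 ± 1.37 to 12.1 ± 0.418 FPKM (SD, n = 3 each, log2FC -0.83, adjusted p = 2.6e-05, and -1.39 after the centring). In the TRAF3-TBK1-IRF arm, 5 of 7 genes were higher and 1 lower as deposited. After the centring Traf3 (-0.13), Tank (-0.06) and Irf3 (-0.14) were below 0, and Irf5 was near 0 (-0.0008). Ikbke had a log2FC of 0.82 and stayed positive after the centring (0.27), whereas Irf7, an interferon-induced factor through which TLR7 and TLR9 switch on type I interferon genes, fell from 75.5 ± 3.64 to 31.9 ± 0.688 FPKM (SD, n = 3 each, log2FC -1.24, adjusted p = 1.2e-06). Of 6 inhibitors, 4 were higher, among them Inpp5d (log2FC 0.52) and Sigirr (0.34), both below 0 after the centring, and Nlrx1 was lower (log2FC -0.71, and -1.27 after the centring). Other receptors that use MyD88 were low in level. Of 5 tested, Il18r1 (log2FC 0.34), Il18rap (0.49) and Il1rl1 (0.95) were higher. After the centring the first pair was below 0, and Il1rl1 was at 0.39 and no longer passed (adjusted p = 0.092).

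Transcripts that Toll-like receptor signalling is known to induce diverged. Of the 19 tested, 10 were higher and 4 lower (median log2FC 0.34, and -0.22 after the centring). Acod1, the itaconate-producing enzyme of activated macrophages, rose from 1.10 ± 0.104 to 4.87 ± 0.252 FPKM (SD, n = 3 each, log2FC 2.06), and the chemokine genes Ccl3 (log2FC 1.98) and Ccl4 (1.78) were also called higher. Nos2 fell from 32.4 ± 0.493 to 4.67 ± 0.288 FPKM (SD, n = 3 each, log2FC -2.77), and Ier3 (log2FC -2.83) and Ptgs2 (-1.51) were called lower. Tnf had a log2FC of 0.56 (adjusted p = 0.0022, and adjusted p = 0.99 after the centring). Genes of this list thus moved in opposite directions in the same libraries, with the monocyte and macrophage markers higher and the ID8 markers lower beside them. The part of either cell type in these changes was not tested.

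**Figure D4:**
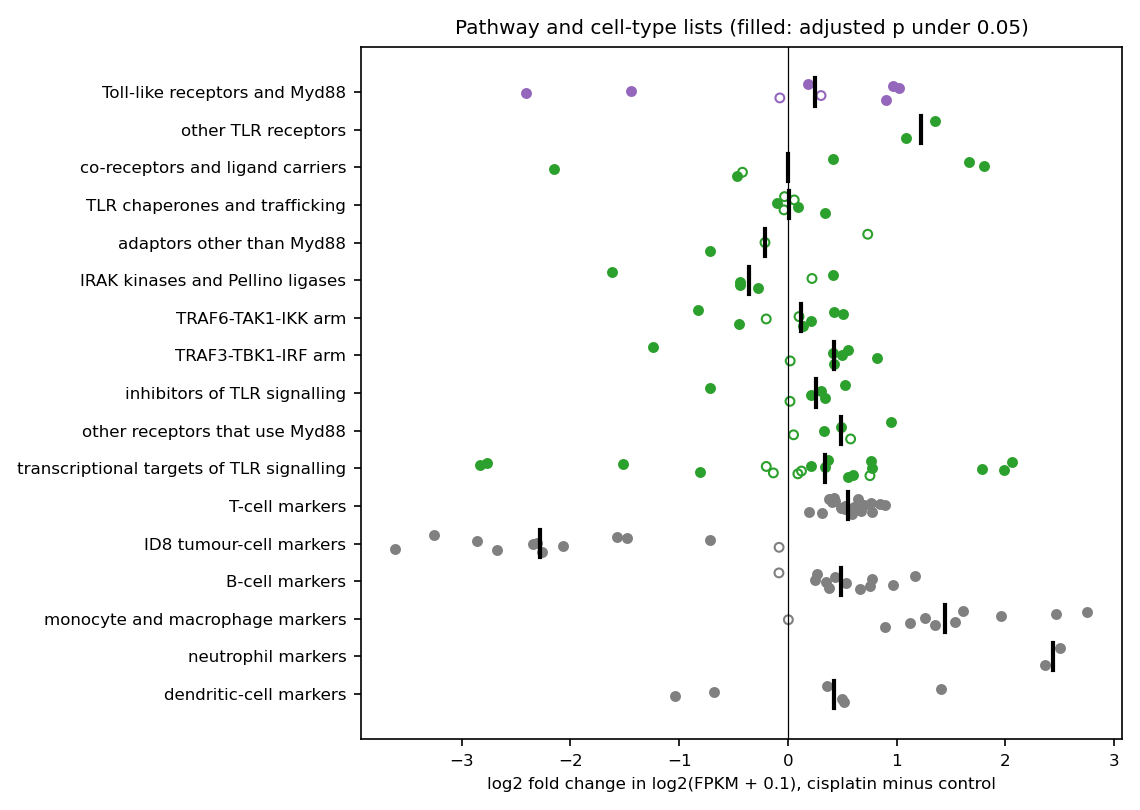
Log2FC (horizontal axis, cisplatin minus control) of the tested genes of each list, with the Toll-like receptors and Myd88 in purple, pathway lists in green and cell-type markers in grey; filled points passed an adjusted p-value of 0.05 and black bars are list medians. The members spread from -2.41 to 1.02, the ID8 markers have a median of -2.28 and the monocyte and macrophage markers one of 1.44.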

How the data were processed

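RNA-seq of 6 libraries of T cells was used, grouped and numbered by the sample titles. The authors deposited FPKM values for 54532 genes, in 1 column per library, and the table held 0 further sample columns. The paper's methods name LifeScope for alignment and counting, whereas the submitters' processing notes name fastp, HISAT2 2.0.5, featureCounts 1.5.0-p3 and mm10; which of them gave the deposited FPKM is not given in the sources used here. Gene coordinates matched GENCODE M21 (GRCm38) for 53499 of 54409 shared genes.

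Whole reads were rebuilt from FPKM and gene length (100% of values within 0.1 of a whole read) and give the depth; intervals on them cover counting error only. Replicate libraries differed by more than sampling noise (chi-square per degree of freedom 5.36 to 6.44). Groups were compared on log2(FPKM + 0.1) in limma 3.58.1 (R 4.3.3; lmFit, eBayes with trend), with genes of at least 0.5 FPKM on average, so fold changes of low genes are understated. Calls needed an adjusted p-value under 0.05 and at least a 2-fold change. Alternatives were other pseudocounts, minimum levels and scalings, no trend, voom, a replicate block and leaving out each library. The steps were tested on simulated data in which few genes changed, equally often in both directions. That setting does not test the scaling between groups. Python 3.11.15, numpy 2.4.6, pandas 2.3.3, scipy 1.17.1 and matplotlib 3.10.9 were used.

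The members and gene lists were chosen with earlier results of these data known. All members and any list gene could be named, and genes of like profile were the 3 nearest to Myd88 and to the receptor of highest mean.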

Additional observations from a re-analysis of the deposited data

How the results depend on the processing

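Tlr1, Tlr3, Tlr4, Tlr7 and Tlr9 kept their direction and an adjusted p-value under 0.05 in every alternative in which they were tested, with log2 fold changes of 0.34 to 1.03 for Tlr1, -2.00 to -0.82 for Tlr3, -2.96 to -2.07 for Tlr4, 0.46 to 1.15 for Tlr7 and 0.41 to 1.12 for Tlr9. Without each library in turn they were 0.85 to 0.93 for Tlr1, -1.63 to -1.32 for Tlr3, -2.43 to -2.37 for Tlr4, 0.96 to 1.06 for Tlr7 and 0.93 to 1.01 for Tlr9, and those of Tlr2 were -0.18 to 0.084. Calls at 2-fold moved more. Against 3 members called, 1 was called with a pseudocount of 1 (Tlr4, with Tlr3 and Tlr7 lost), 5 with quantile normalization (Tlr1 and Tlr9 gained), 6 with voom (Tlr9 gained, with Tlr5 and Tlr8, which were under the minimum of the FPKM fit) and 2 after centring on the T-cell markers (Tlr7 lost). Of the pathway genes, 33 were higher and 16 lower as deposited, 9 and 40 after that centring and 9 and 38 after centring on the B-cell markers. Over all genes, 2687 were called, 1762 with a pseudocount of 1, 1145 with a minimum mean of 5 FPKM and 3768 after centring on the T-cell markers (voom: 3550). Scaling the libraries by the median of ratios left the values nearly as deposited (log2FC of Tlr1 0.8992 against 0.8993) and 2687 genes called. It therefore gives no separate check of the deposited scaling.

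Centring on the T-cell markers turned Myd88 to -0.37 and Tlr6 to -0.25, and centring on the B-cell markers (chosen after the data were seen) turned them to -0.35 and -0.23. This subtraction lowers every gene alike. Tlr2 changed sign around 0, to 0.12 with quantile normalization, 0.0019 with voom and 0.084 without cisplatin replicate 2. Tlr6 passed an adjusted p of 0.05 with quantile normalization (0.49) and voom (0.40). With the replicate number as a block (replicate block), 2662 genes and 3 members were called and 6 members passed an adjusted p-value of 0.05. Same-numbered libraries did not deviate together (r = 0.023, -0.063 and -0.021 between deviations from the group means over genes). Libraries of unlike number gave r of -0.061 to 0.083. With 3 libraries in each group, these values cannot decide whether libraries of the same number share an origin. Depth limits Tlr5 and Tlr8, which had at most 55 reads in any library.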
